A study of Homo sapiens with 39 samples.

Results

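HNF4A is a nuclear receptor transcribed from 2 promoters, P1 and P2, and the comparison described here set the isoform with the P2 start, HNF4alpha7, against the isoform with the P1 start, HNF4alpha1. It used 6 of the 39 RNA-seq libraries of the study: 3 of the isoform 7 line and 3 of the isoform 1 line. All cells were HCT116, a human colorectal cancer line, in its Flp-In T-REx form, which accepts a single construct at a fixed site and switches it on with doxycycline. Each line carried 1 isoform fused at its C-terminus to GFP and was 1 stable line, so a difference between isoforms and a difference between lines cannot be told apart. Every group received 2.5 µg/ml doxycycline for 48 h without selection antibiotics. Both isoform lines had been kept in blasticidin and hygromycin B, and the parental cells, which carry no HNF4A construct and serve here as a reference level with 3 libraries, in blasticidin and zeocin. No group expressed GFP alone. Another 12 libraries gave the same change of start in other C-terminal forms: isoform 8 against isoform 2, which carry an insertion near the C-terminus, and isoform 9 against isoform 3, which have a shortened C-terminus. They were lines of the same host under the same treatment. These descriptions of the isoforms come from the standard nomenclature, not from the labels.

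HNF4A binds DNA as a homodimer and is a main regulator of liver and gut epithelial genes, among them those for lipoproteins, bile acid handling, clotting factors and the microvilli of the brush border. The P1 start encodes an N-terminal activation domain, AF-1, which the P2 start lacks. Both products share the DNA-binding and ligand-binding domains. P1 products mark adult liver and differentiated gut epithelium, whereas P2 products are found in fetal liver, pancreas and the intestinal crypt.

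The first coding exons show the part of the message in which the 2 isoforms differ. In GENCODE release 29 (GRCh38), the coding part of the P1 first exon lies at chr20:44401373-44401487 and that of the P2 first exon at chr20:44355805-44355853, both on the plus strand of HNF4A, and the coding starts are 45568 bases apart. The P1 exon gives 115 coding bases, or 38 whole codons and 1 further base, and the P2 exon gives 49 coding bases, or 16 whole codons and 1 further base. Both continue in the same next exon, at chr20:44406058-44406232. Capitals mark the start codon.
P1 first coding exon: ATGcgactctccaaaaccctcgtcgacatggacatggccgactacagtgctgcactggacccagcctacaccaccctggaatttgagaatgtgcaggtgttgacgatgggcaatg
P2 first coding exon: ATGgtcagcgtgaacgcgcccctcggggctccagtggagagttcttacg

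The constructs were expressed at similar levels. Summed over the 12 HNF4A isoform rows of the tables, HNF4A stood at 806, 776.2 and 765.1 TPM (transcript abundance corrected for length and scaled to the same sum in each library) in the isoform 1 libraries and at 691.6, 752.1 and 754 TPM in the isoform 7 libraries. The parental cells had 31.95, 30.81 and 31.66 TPM. The isoform 7 mean was lower by 49.8 TPM, a ratio of 0.936, and every isoform 7 library lay below every isoform 1 library. The exact two-sided permutation test gave p = 0.1, the smallest that 3 against 3 libraries allow. In each line nearly all of the sum sat in the row of the labelled isoform: 803.5, 773.9 and 763.1 TPM in the isoform 1 row and 689.4, 749.1 and 750.9 TPM in the isoform 7 row, while no other isoform row of these lines passed 1.73 TPM. All 6 libraries thus matched their labels.

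The 6 libraries had between 27892 and 29098 rows above 0. Read depth is unknown from TPM. Correlations of log2(TPM + 1) across rows were 0.9956 to 0.9962 within isoform 1, 0.9952 to 0.9961 within isoform 7 and 0.9911 to 0.9935 between the lines, and no library stood apart. The cells expressed the epithelial markers of a colorectal line, with all 8 markers tested and none called different. Their summed level was 5509 to 6026 TPM in isoform 1, 4871 to 5038 TPM in isoform 7 and 3307 to 3450 TPM in the parental cells. Fibroblast and endothelial markers summed to 13.1 to 21.4 TPM in the 6 libraries. Immune markers summed to 34 to 36.7 TPM in isoform 1 and 17.3 to 21.7 TPM in isoform 7. Most of that was CD68, a lysosomal protein, at 32.7, 34.7 and 31.8 against 15.4, 19.1 and 19.3 TPM, while CD3E was at 0 in all 6 libraries and PTPRC reached at most 0.129 TPM. In a bulk library, fewer cells of a kind and less RNA per cell cannot be told apart.

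Most genes that differed by about 2-fold or more were lower with the P2 start. Of 15002 tested rows, 213 (1.42%) were called, which means a limma adjusted p under 0.05 and a difference of at least 1 on the log2(TPM + 1) scale, or about 2-fold. Of these, 175 (1.17% of tested rows) were lower in isoform 7 and 38 (0.253%) were higher. Lower rows made up 82.2% of the calls. Among protein-coding genes the split was 153 lower to 16 higher of 12173 tested. Differences of at least 2, or about 4-fold, were reached by 27 of the lower rows and by 4 of the higher rows. The 3 isoform 7 libraries lay fully below the 3 isoform 1 libraries in 173 of the 175 lower rows, and fully above them in 32 of the 38 higher rows. Over all tested rows these shares were 19.7% and 26.8%, and the call itself favours rows without overlap. The median difference over all tested rows was 0.038. With no minimum difference, 5995 rows (40%) passed the adjusted p, 3474 of them (23.2%) higher and 2521 (16.8%) lower. This balance of small differences turned with median-of-ratios scaling between libraries, which gave 2799 higher and 3200 lower, whereas that of the larger differences did not (33 higher and 197 lower calls). In the authors' deposited tables, the fold change of isoform 7 against the parental cells minus that of isoform 1 had the same sign as here for all 213 rows. Those fold changes rest on the same libraries, so the shared sign is no independent evidence and says nothing about size. In the protein-coding genes called lower, the median of mean levels was 23.8 TPM in isoform 1, 7.76 TPM in isoform 7 and 5.49 TPM in the parental cells. In those called higher it was 4.82, 13.5 and 6.35 TPM.

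**Figure D1:**
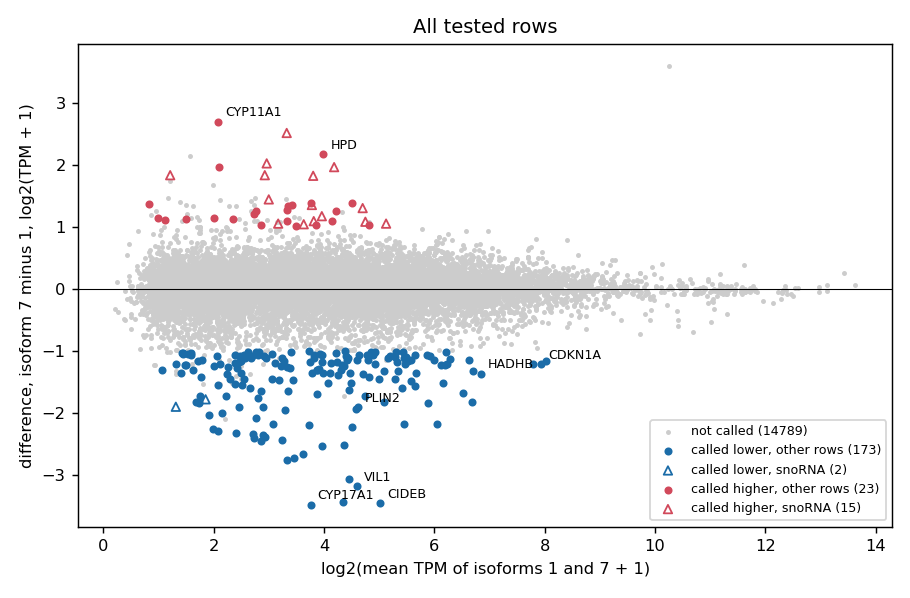
Difference of isoform 7 minus isoform 1 on the log2(TPM + 1) scale (vertical axis) against the mean level of both lines on a log2 axis, 1 point per tested row. Blue points are the rows called lower, red points the rows called higher, and open triangles are the called snoRNAs. Rows not called, other snoRNAs among them, are grey points. The blue points reach -3.48 at CYP17A1, and 15 of the 38 rows called higher are snoRNAs.

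The largest falls were those of CYP17A1, CIDEB, SDCBP2, VIL1 and CREB3L3. CYP17A1, a steroid hydroxylase (chr10:102830531-102837533), was at 27.9, 17.1 and 26.6 TPM in isoform 1 and at 1.53, 1.15 and 0.922 TPM in isoform 7. The lowest isoform 1 library was far above the highest isoform 7 library, and the parental mean was 0.164 TPM. The difference was -3.48 ± 0.17 (SE, n = 3 per line, limma adjusted p = 1.37e-15), and the isoform 1 mean was 19.8 times the isoform 7 mean. VIL1, or villin, which bundles the actin of microvilli (chr2:218419092-218453295), was at 44.2, 38.2 and 45.6 TPM against 4.2, 3.28 and 3.94 TPM, a difference of -3.18 ± 0.17 (limma adjusted p = 2.8e-15). Both lines were above the parental mean of 0.554 TPM. SDCBP2, a PDZ scaffold protein, was at 39.7, 29.5 and 39.8 TPM against 2.76, 2.34 and 2.18 TPM, a difference of -3.44 ± 0.19. CREB3L3, a membrane-bound transcription factor of liver and gut, was at 43.3, 36.6 and 33.8 TPM against 3.78, 3.8 and 3.37 TPM, a difference of -3.06 ± 0.16. In all 4 genes the parental mean was under 1 TPM and isoform 7 lay between it and isoform 1.

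Among transcription factors of gut and liver, 1 of 19 tested members was called, where 1.42% of all tested rows were. NR1I3, the nuclear receptor CAR that controls drug metabolism genes, was at 21.7, 19.2 and 19.7 TPM in isoform 1 and at 2.6, 1.73 and 2.85 TPM in isoform 7, a difference of -2.66 ± 0.16. At any size, 10 of the 19 were lower and 3 higher at an adjusted p under 0.05, where 16.8% of all tested rows were lower and 23.2% higher. KLF5, a crypt factor, differed by -0.90 ± 0.09, while FOXA3 differed by 0.50 ± 0.08 and CDX2 by 0.27 ± 0.08. Of these, CDX2 was at 9.47, 9.32 and 9.29 TPM against 11.4, 12 and 11.1 TPM, and the lines did not overlap.

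Of 21 listed genes that HNF4A is known to activate in hepatocytes or enterocytes, 5 were above the expression filter. Of these, 4 were called lower, where 1.17% of all tested rows were. The filter is a mean over all 39 libraries, so a member can pass it through the lines in which it is high. That favours a lower call where isoform 1 is among those lines. The list had been used on these samples before, so its direction is not independent evidence. The 4 were VIL1, LGALS4, APOA1 and F10. APOA1, the main protein of high-density lipoprotein, was at 6.75, 4.75 and 5.14 TPM in isoform 1, at 0.275, 0.455 and 0.348 TPM in isoform 7 and at a mean of 0.274 TPM in the parental cells. Its isoform 7 libraries therefore stood near the parental level, and the difference was -2.26 ± 0.12, or -3.62 with a pseudocount of 0.1. F10, clotting factor X, was at 39, 34.7 and 35.3 TPM against 7.01, 7.16 and 6.7 TPM, below the parental mean of 9.25 TPM. LGALS4, a galectin of gut epithelium, was at 12.1, 10.1 and 12.3 TPM against 1.39, 1.51 and 1.42 TPM. The fifth member, MTTP, which loads lipid onto lipoproteins, differed by 0.01 ± 0.12. The other 16 members did not pass the filter, and over the 20 members with any value the median was -0.03. Among these, APOC3 was at 3.55, 1.61 and 2.53 TPM against 0.0982, 0.177 and 0.0933 TPM, while FABP1 was listed at 0 in all 6 libraries.

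Of 11 tested brush border genes, 4 were called lower, where 1.17% of all tested rows were, and none higher, where 0.253% were. The median difference was -0.23, and it was -0.06 over the 30 members with any value. Here too a member can pass the filter through lines in which it is high, which favours a lower call where isoform 1 is among them. Of the 4 called, VIL1 and LGALS4 are also on the list above. The others were USH1C, or harmonin, which anchors the links between microvilli, and SLC9A3R1, a scaffold under the apical membrane. USH1C was at 22.1, 17.5 and 20.3 TPM against 7.91, 7.21 and 7.22 TPM, near the parental mean of 6.43 TPM. SLC9A3R1 was at 371, 342 and 362 TPM against 164, 158 and 156 TPM, with a parental mean of 88.3 TPM. The remaining 7 members were not called. ANPEP, the brush border aminopeptidase, was at 9, 8.73 and 7.34 TPM against 8.76, 8.01 and 8.62 TPM, a difference of 0.02 ± 0.10, and both lines were far above the parental 0.119 to 0.181 TPM. Of junction genes, 2 of 22 were called lower: DSC2, a desmosomal cadherin, by -1.12 ± 0.12 and TJP3, a tight junction scaffold, by -1.01 ± 0.13. At any size, 12 junction genes were lower and 1 was higher, against the same 16.8% and 23.2% of all tested rows. TJP3 lost its call without isoform 7 replicate 2 (-0.96), isoform 1 replicate 1 (-0.97) or isoform 1 replicate 3 (-0.95).

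**Figure D2:**
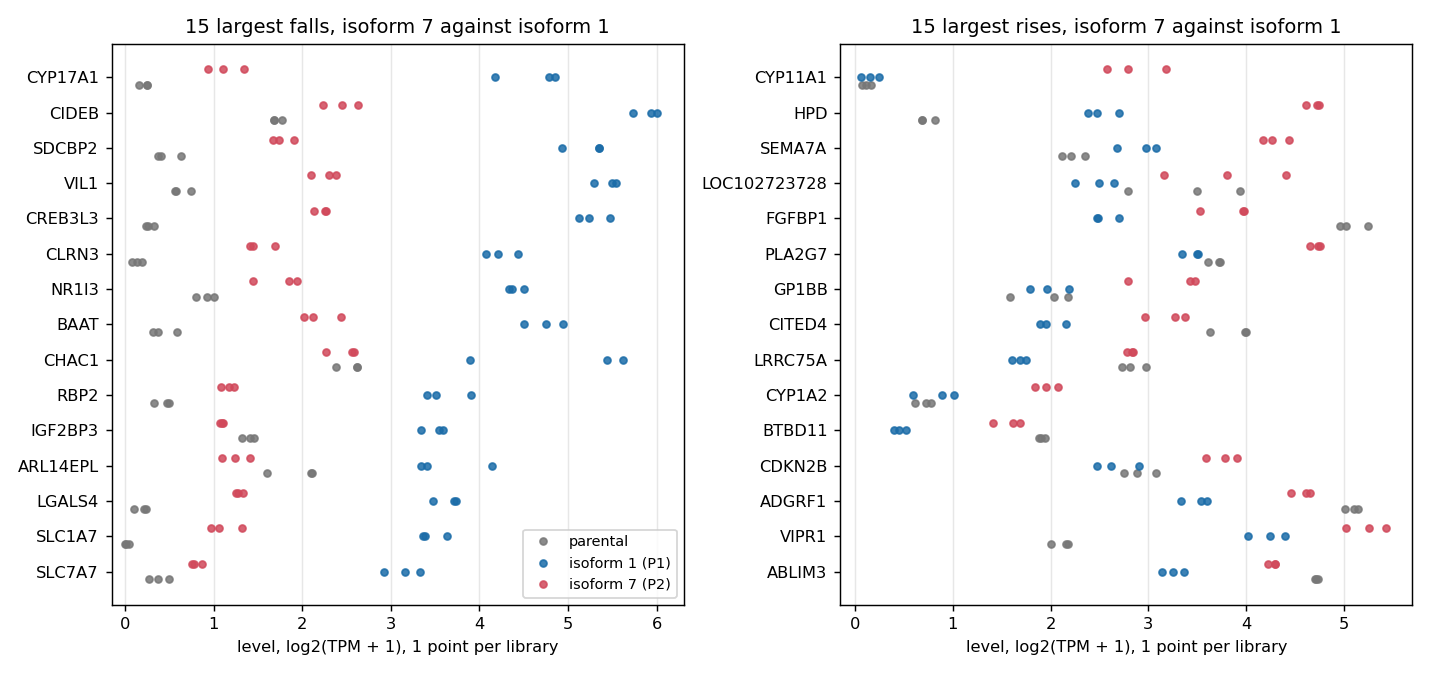
Level of the 15 protein-coding genes with the largest falls (left) and the 15 with the largest rises (right), as log2(TPM + 1) on the horizontal axis, with 1 point per library, 3 libraries per group. Genes were chosen among those in which the isoform 7 points (red) do not overlap the isoform 1 points (blue), and grey points give the parental level. CYP11A1 is near 0 in isoform 1 and in the parental cells.

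The lipid droplet proteins CIDEB, CIDEC and PLIN2 fell. CIDEB, which acts in lipid droplets and lipoprotein loading (chr14:24305096-24311430), was at 60.4, 52 and 63.2 TPM in isoform 1 and at 3.7, 4.45 and 5.18 TPM in isoform 7, a difference of -3.45 ± 0.18 (limma adjusted p = 2.76e-15). CIDEC, which fuses droplets, was at 99.6, 86 and 87.7 TPM against 23, 27.4 and 23.7 TPM. Its parental mean was 0.0745 TPM, so both lines were well above the host cells. PLIN2, a droplet coat protein, behaved otherwise relative to the parental cells: it was at 37.9, 37.2 and 37.2 TPM in isoform 1, at 10.5, 9.85 and 7.68 TPM in isoform 7 and at 31.7, 33.1 and 30.7 TPM in the parental cells. Isoform 7 was thus the low group, with a difference from isoform 1 of -1.91 ± 0.06. These 3 were the only called members of the 24 tested on the lipid droplet and triglyceride list, where 1.17% of all tested rows were called lower. At any size, where 16.8% of all rows were lower and 23.2% higher, 11 members were lower, among them AGPAT2, an acyltransferase of triglyceride synthesis (-0.89 ± 0.06), and 3 were higher, among them HILPDA, a lipase inhibitor (0.32 ± 0.06). The list's median was -0.11.

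Genes of fatty acid oxidation were lower as a majority of small differences. Of 24 tested members 3 were called lower, where 1.17% of all tested rows were. At any size 19 were lower and 1 higher, where 16.8% of all tested rows were lower and 23.2% higher. The median difference was -0.47. HADHB, the thiolase subunit of the mitochondrial trifunctional protein, was at 162, 160 and 171 TPM against 64.6, 62.8 and 61.2 TPM, a difference of -1.37 ± 0.07 that placed isoform 7 below the parental mean of 70.9 TPM. ETFDH, which passes electrons from the acyl-CoA dehydrogenases to ubiquinone, was at 32.4, 30.3 and 34.5 TPM against 13.9, 12.7 and 15.8 TPM, a difference of -1.14 ± 0.10. SLC25A20, the carnitine carrier of the inner membrane, was at 47.6, 47.1 and 52.3 TPM against 22.3, 23.6 and 21.9 TPM, a difference of -1.08 ± 0.08. CPT1A, which controls entry of fatty acids, did not pass (-0.07 ± 0.07), and the member that rose was BDH1, a ketone body enzyme (0.42 ± 0.06). Summed over the list, the libraries ranged from 2675 to 2805 TPM in isoform 1, from 1961 to 2006 TPM in isoform 7 and from 1696 to 1753 TPM in the parental cells.

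**Figure D3:**
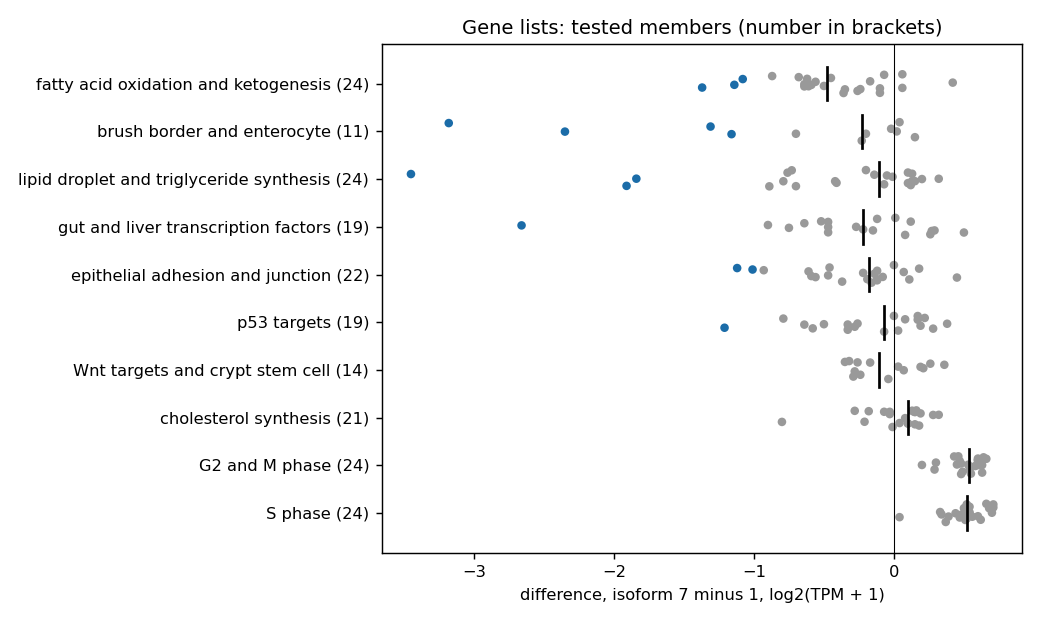
Difference of isoform 7 minus isoform 1 on the log2(TPM + 1) scale for the tested members of 10 gene lists, 1 point per gene, spread vertically only for legibility. Blue points are called lower, grey points are not called, and black bars are medians. The cell-cycle lists lie to the right of 0 with medians of 0.52 and 0.54, and fatty acid oxidation lies to the left with a median of -0.47.

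BAAT, an enzyme that conjugates bile acids, was at 29.7, 21.6 and 25.9 TPM against 4.41, 3.06 and 3.35 TPM, a difference of -2.54 ± 0.16. RBP2, the retinol-binding protein of enterocytes, was at 14, 9.63 and 10.4 TPM against 1.26, 1.34 and 1.12 TPM, a difference of -2.45 ± 0.14. SLC7A7, a subunit of a cationic amino acid transporter, differed by -2.33 ± 0.13 and SLC1A7, a glutamate transporter, by -2.34 ± 0.12. CLRN3, a clarin-family membrane protein, was at 17.5, 15.8 and 20.7 TPM against 1.65, 2.23 and 1.73 TPM, and ARL14EPL at 9.14, 9.58 and 16.6 TPM against 1.65, 1.13 and 1.37 TPM. SULT2B1, a sterol sulfotransferase and the only called member of 11 tested xenobiotic and conjugation genes, was at 66.7, 59.5 and 62.4 TPM against 21, 20.4 and 19 TPM. CHAC1, a glutathione-degrading enzyme, was uneven in isoform 1, at 42.5, 13.8 and 48 TPM against 4.99, 4.9 and 3.83 TPM in isoform 7. It fell by 2.51 on the log2 scale, with an SE of 0.24. IGF2BP3, an RNA-binding protein of fetal tissue and tumours, was at 9.1, 11 and 10.7 TPM against 1.1, 1.15 and 1.14 TPM, with the parental mean at 1.63 TPM. IL32, an inflammatory cytokine, was at 148, 122 and 148 TPM against 45.6, 42.1 and 40.3 TPM, and ISG20, an interferon-induced exonuclease, differed by -1.35 ± 0.08. Each was the only called member of its list, of 9 tested for inflammation and 17 for interferon. With 1.42% of all tested rows called, 1 call in lists of this size, that of SULT2B1 included, says little about the list. The largest fall of a row that is not protein-coding was WFDC21P, a transcribed pseudogene, at 19.4, 12.4 and 17.5 TPM against 2.17, 0.449 and 2.56 TPM.

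Fewer genes were called higher in isoform 7. CYP11A1, the enzyme that cleaves the cholesterol side chain to start steroid synthesis (chr15:74337759-74367740), was at 8.05, 4.98 and 5.9 TPM in isoform 7 and at 0.187, 0.0465 and 0.112 TPM in isoform 1. The parental libraries had 0.0852, 0.0495 and 0.124 TPM, so isoform 7 alone among these groups expressed it above 1 TPM. The difference was 2.69 ± 0.10 (limma adjusted p = 5.5e-18) and rose to 4.92 with a pseudocount of 0.1. HPD, an enzyme of tyrosine breakdown (chr12:121839527-121863596), was at 25.8, 23.4 and 25.4 TPM against 5.51, 4.54 and 4.22 TPM, a difference of 2.17 ± 0.11. Both lines were above the parental mean of 0.661 TPM. SEMA7A, a membrane-anchored semaphorin, was at 20.7, 17 and 18.2 TPM against 7.45, 6.86 and 5.42 TPM, and VIPR1, the receptor of vasoactive intestinal peptide, at 42.1, 31.4 and 37.1 TPM against 20, 15.2 and 17.9 TPM. VIPR1 missed the minimum difference without isoform 7 replicate 1 (0.92), without isoform 1 replicate 2 (0.91) and with scaling between libraries (0.98).

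Some of the higher genes were at an intermediate level, with the parental cells above both lines. FGFBP1, which releases fibroblast growth factors from the matrix, was at 14.7, 14.6 and 10.5 TPM in isoform 7, at 4.59, 5.49 and 4.57 TPM in isoform 1 and at 31.5, 36.9 and 30 TPM in the parental cells. ADGRF1, an adhesion receptor, was at 20.9, 24.2 and 23.5 TPM against 10.6, 11.1 and 9.1 TPM, with a parental mean of 32.9 TPM. CITED4, a transcriptional co-regulator, was at 9.37, 8.65 and 6.78 TPM against 3.45, 2.86 and 2.7 TPM, with a parental mean of 13.7 TPM. ABLIM3, an actin-binding LIM protein, and BTBD11 had the same order of means, 25.3, 18.3 and 8.54 TPM and 2.76, 1.97 and 0.375 TPM in the parental, isoform 7 and isoform 1 cells. BTBD11 differed by 1.11 ± 0.13, or 2.12 with a pseudocount of 0.1. ABLIM3 differed by 1.02 ± 0.10 and missed the minimum without isoform 1 replicate 3 (0.96) and with scaling (0.98). In a further set isoform 7 was above both other groups. PLA2G7, which inactivates platelet-activating factor, was at 24.2, 26 and 25.5 TPM against 10.3, 10.4 and 9.16 TPM and a parental mean of 11.9 TPM. CDKN2B, the cyclin-dependent kinase inhibitor p15, was at 11, 12.8 and 14 TPM against 5.14, 4.54 and 6.47 TPM and a parental mean of 6.52 TPM. CYP1A2, a drug-metabolising enzyme, was at 3.22, 2.87 and 2.57 TPM against 0.851, 1.02 and 0.509 TPM, a difference of 1.12 ± 0.10, or 1.78 with a pseudocount of 0.1. GP1BB, a platelet glycoprotein whose gene overlaps SEPT5 in the annotation, was at 10.1, 5.94 and 9.7 TPM against 2.89, 2.46 and 3.54 TPM. Reads of these 2 overlapping genes may have been shared between them. The last 2 genes were not above the parental cells in all libraries. LRRC75A, at 6.16, 6.1 and 5.87 TPM against 2.37, 2.05 and 2.22 TPM, stood at the parental level of 6, 5.64 and 6.88 TPM and differed between the lines by 1.13 ± 0.09. LOC102723728, at 20.2, 7.9 and 13 TPM against 4.63, 5.28 and 3.74 TPM, overlapped the parental 14.3, 5.94 and 10.3 TPM. It had an adjusted p of 0.0244 (limma) and lost its call without isoform 7 replicate 1 (adjusted p = 0.128), isoform 7 replicate 3 (0.0548), isoform 1 replicate 1 (0.051) or isoform 1 replicate 3 (0.0781), and with no expression filter (0.0647).

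Of the 38 rows called higher, 15 were snoRNAs, short nucleolar RNAs that lack a poly(A) tail and are measured with more spread in a poly(A) library. They were 15 of 258 tested snoRNAs, where 0.253% of all tested rows were called higher. The median SE was 0.47 over the 258 tested snoRNAs and 0.07 over protein-coding genes, and the median snoRNA difference was 0.29. The isoform 7 libraries lay fully above in 10 of the 15, and in 30 (11.6%) of all tested snoRNAs. None of the 15 was called higher in isoform 8 against isoform 2, where 0.487% of tested rows were, and 1 was in isoform 9 against isoform 3, where 0.127% were. With shares this small, the lack of a call among 15 rows says little. SNORA5B, the largest, was at 16.9, 7.91 and 21.5 TPM in isoform 7 and at 0, 1.69 and 6.18 TPM in isoform 1, a difference of 2.51 ± 0.74 (limma adjusted p = 0.00732). Without isoform 1 replicate 1 it was 1.80 and not called (adjusted p = 0.0779).

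Cell-cycle genes were higher in isoform 7 by an amount below the minimum difference. None of the 24 S phase or 24 G2 and M phase genes was called. At any size 23 of the S phase genes and 24 of the G2 and M phase genes were higher at an adjusted p under 0.05 and none was lower, where 23.2% of all tested rows were higher. With scaling between libraries these counts were also 23 and 24. The medians were 0.52 for S phase and 0.54 for G2 and M phase. MCM5, a subunit of the replicative helicase, was at 84.3, 84.3 and 75.5 TPM in isoform 1, at 134, 140 and 126 TPM in isoform 7 and at 152, 152 and 148 TPM in the parental cells. The groups did not overlap, and isoform 7 was nearer the parental level than isoform 1 was. MKI67, a marker of cycling cells, was at 44.7, 52.6 and 39.5 TPM against 63.3, 68.7 and 82.4 TPM, with 70.9, 70.5 and 78.6 TPM in the parental cells. CDKN1A, the cyclin-dependent kinase inhibitor p21, moved the other way, at 363, 331 and 331 TPM in isoform 1, 156, 147 and 140 TPM in isoform 7 and 106, 105 and 100 TPM in the parental cells. It differed by -1.21 ± 0.09 and was the only one of 19 tested p53 targets that was called, where 1.42% of all tested rows were. MDM2, another p53 target, differed by 0.00 ± 0.09. Summed over the S phase list, the libraries ranged from 2020 to 2234 TPM in isoform 1, from 2748 to 3130 TPM in isoform 7 and from 3503 to 3705 TPM in the parental cells. The growth state of the cultures at harvest is not given in the labels, and its part in these differences was not tested.

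**Figure D4:**
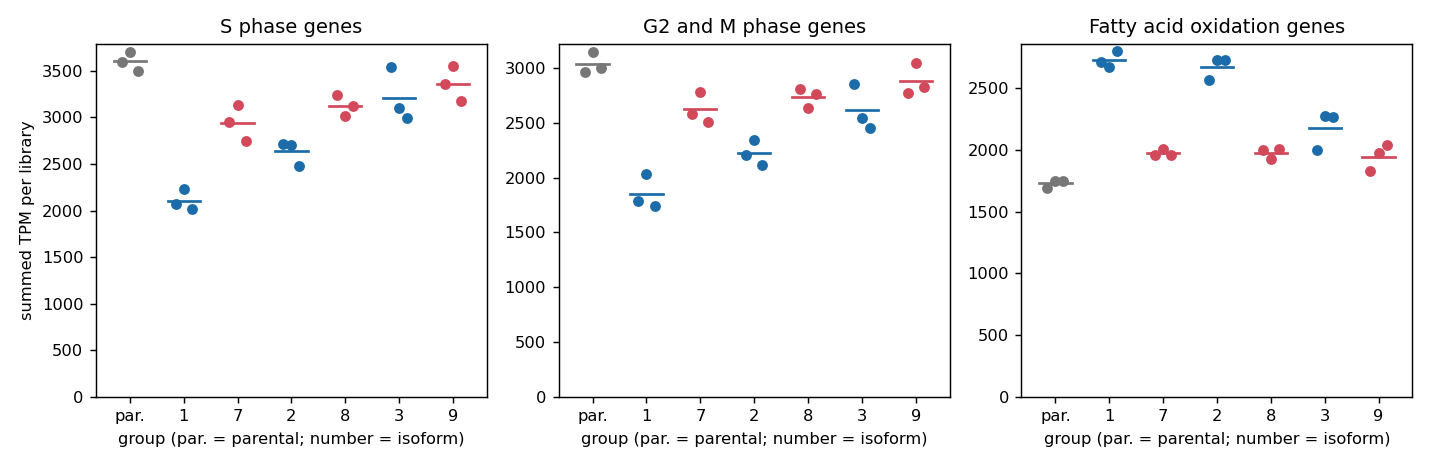
Summed TPM per library of the S phase, G2 and M phase and fatty acid oxidation lists, on vertical axes that start at 0, in the parental cells (grey), lines with the P1 start (blue: isoforms 1, 2 and 3) and lines with the P2 start (red: isoforms 7, 8 and 9). Points are libraries and bars are means of 3. Isoform 1 has the lowest cell-cycle sums, from 2020 to 2234 TPM for S phase.

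No member was called among 14 Wnt target and crypt genes, 18 circadian clock genes, 14 mesenchymal genes and 21 cholesterol synthesis genes. With 1.42% of all rows called, lists of this size say little by having no call. Their medians were -0.10, -0.04, 0.03 and 0.10. Of the cholesterol genes MSMO1 had the largest difference (-0.80 ± 0.13).

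Isoforms 8 and 2, and 9 and 3, gave the same change of start in other lines. Their libraries entered the same fit, with its shared filter and spread, but no library of isoform 7 or 1 is part of these contrasts. Isoform 8 against isoform 2 had 231 calls (1.54%), 73 higher and 158 lower. Isoform 9 against isoform 3 had 84 calls (0.56%), 19 higher and 65 lower. One isoform 3 library was low in HNF4A, at 406.9 TPM against 833.5 and 771.8 TPM in its replicates, and without it the latter count was 110, with 20 higher and 90 lower. HNF4A means also differed within these pairs, at 734 ± 31.2 TPM in isoform 8 and 614 ± 39.2 TPM in isoform 2, and at 948 ± 130 TPM in isoform 9 and 671 ± 231 TPM in isoform 3 (SD, n = 3). Of the 175 rows lower in isoform 7, 96 (54.9%) were called lower in isoform 8 against 2, where 1.05% of tested rows were, and these were 60.8% of the rows called lower there. In isoform 9 against 3, 37 (21.1%) were called lower, where 0.433% of tested rows were, and these were 56.9% of the 65. Without the low isoform 3 library they were 51 (29.1%). In total 30 rows were lower in all 3 pairs. Median differences of the 175 rows were -1.03 in isoform 8 against 2 and -0.62 in isoform 9 against 3. Of the 38 rows higher in isoform 7, 14 (36.8%) were called higher in isoform 8 against 2, where 0.487% of tested rows were. These were only 19.2% of the 73 rows called higher there. In isoform 9 against 3, 5 (13.2%) were called higher, where 0.127% of tested rows were, and these were 26.3% of the 19. Among the 16 protein-coding genes of the 38 rows, 13 were called higher in isoform 8 against 2 and 4 in isoform 9 against 3.

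Individual genes showed how the pairs compared. CIDEB differed by -3.45, -3.38 and -2.55 in isoforms 7 against 1, 8 against 2 and 9 against 3, and VIL1 by -3.18, -2.77 and -2.24, and both were called lower in all 3 pairs. F10 differed by -2.23, -2.21 and -1.71 and HPD by 2.17, 1.89 and 1.18. CYP11A1 differed by 2.69 and 2.75 in the first pairs and by 0.12 in the third, and the difference of 2.57 between the first pair and the third was called. Its means were 6.26 TPM in isoform 8 and 0.0981 TPM in isoform 9. PLIN2 was low in isoform 7 only among these 6 lines, with means of 9.33 TPM there and between 29.9 and 37.5 TPM in isoforms 1, 2, 8, 3 and 9. Its difference stood apart from those of the other pairs by -1.70 and -1.67, and both of these values were called. CHAC1 was high in isoform 1, at a mean of 34.8 TPM, and between 3.69 and 5.67 TPM in isoforms 7, 2, 8, 3 and 9. IGF2BP3 differed by -2.40, 0.59 and -0.69. Where the difference between pairs was itself tested, 69 rows (0.46%) were called between the isoform 7 and 8 pairs and 91 (0.607%) between the isoform 7 and 9 pairs, or 66 without the low isoform 3 library.

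The cell-cycle medians were smaller in the other pairs: 0.34 for S phase and 0.30 for G2 and M phase in isoform 8 against 2, and 0.08 and 0.15 in isoform 9 against 3. The test of the difference from the isoform 8 pair passed at any size in 4 of 24 S phase genes and 1 of 24 G2 and M phase genes, where 5.71% of rows did, so the smaller G2 and M phase median there rests on no more passing genes than the background gives. The test of the difference from the isoform 9 pair passed in 21 of 24 S phase genes and 15 of 24 G2 and M phase genes, where 15.1% of rows did. Without the low isoform 3 library these were 16 and 9 of 24, where 9.01% of rows did, and the S phase median in isoform 9 against 3 was 0.15. The fatty acid oxidation median was -0.36 in isoform 8 against 2 and -0.06 in isoform 9 against 3. Of its 24 tested members, 17 passed the test of the difference from the isoform 9 pair, or 10 without the low isoform 3 library. None passed that from the isoform 8 pair.

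**Figure D5:**
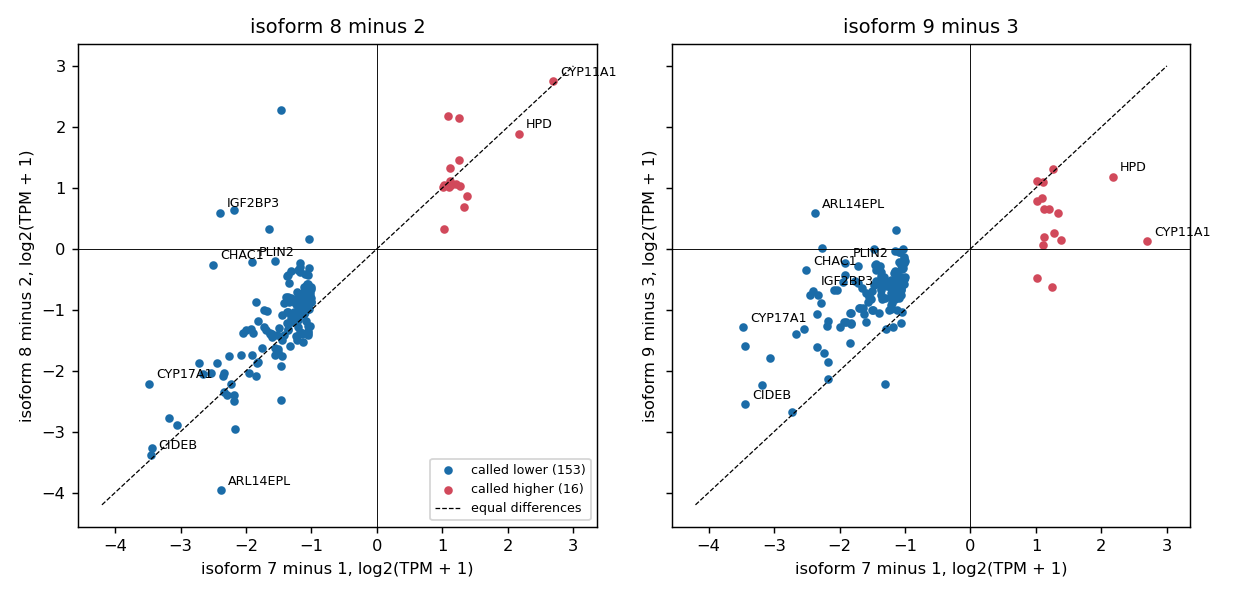
Difference of isoform 8 minus 2 (left) and of isoform 9 minus 3 (right) against that of isoform 7 minus 1, all on the log2(TPM + 1) scale, for the 153 protein-coding genes called lower (blue) and 16 called higher (red) in isoform 7 against 1. The dashed line marks equal differences. CYP11A1 lies near it on the left (2.75) and near 0 on the vertical axis on the right (0.12).

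Promoters of the genes called were searched for 2 spellings of the motif that HNF4A is known to bind, CAAAGTCCA and CAAAGGTCA, on both strands of the 250 bases before each RefSeq gene start (GRCh38.p14). Of 27305 promoters 0.634% held a match, and of the 9679 tested protein-coding genes that the table covers, 0.434% did. Among protein-coding genes lower in isoform 7, the table covered 110 of 153 and 5 of these (4.55%) held a match. None of the 12 higher genes with a promoter did, nor did any of the 13 genes with a promoter among the 15 largest falls. With 0.434% of tested genes holding a match, no match in sets of this size says little. The 5 are printed because they are all the matches among the called protein-coding genes that the table covers. Called rows of other types were not counted. The match is in capitals, and the bases run from the one farthest from the start to the one next to it.
GPR35, chr2:240605180-240605429, plus strand: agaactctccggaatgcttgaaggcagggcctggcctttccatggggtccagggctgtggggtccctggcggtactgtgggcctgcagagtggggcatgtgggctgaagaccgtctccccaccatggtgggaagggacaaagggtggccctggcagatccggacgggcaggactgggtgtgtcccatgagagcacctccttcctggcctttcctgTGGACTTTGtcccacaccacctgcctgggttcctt
PPP1R14D, chr15:40828709-40828958, minus strand: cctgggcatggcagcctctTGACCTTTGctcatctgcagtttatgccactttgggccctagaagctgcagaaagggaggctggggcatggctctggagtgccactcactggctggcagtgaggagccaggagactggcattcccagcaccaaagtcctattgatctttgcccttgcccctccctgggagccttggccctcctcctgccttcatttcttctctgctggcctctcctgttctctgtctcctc
APOBEC1, chr12:7665909-7666158, minus strand: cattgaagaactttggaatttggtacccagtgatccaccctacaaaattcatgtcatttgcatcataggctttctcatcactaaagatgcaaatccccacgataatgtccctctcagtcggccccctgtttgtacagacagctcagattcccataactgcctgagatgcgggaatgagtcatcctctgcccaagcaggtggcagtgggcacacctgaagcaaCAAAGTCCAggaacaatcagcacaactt
VTN, chr17:28370308-28370557, minus strand: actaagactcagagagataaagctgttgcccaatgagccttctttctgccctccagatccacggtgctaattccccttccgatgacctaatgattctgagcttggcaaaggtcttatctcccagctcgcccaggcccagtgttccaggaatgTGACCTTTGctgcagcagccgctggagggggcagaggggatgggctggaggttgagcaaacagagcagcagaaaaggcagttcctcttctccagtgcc
MISP, chr19:750862-751111, plus strand: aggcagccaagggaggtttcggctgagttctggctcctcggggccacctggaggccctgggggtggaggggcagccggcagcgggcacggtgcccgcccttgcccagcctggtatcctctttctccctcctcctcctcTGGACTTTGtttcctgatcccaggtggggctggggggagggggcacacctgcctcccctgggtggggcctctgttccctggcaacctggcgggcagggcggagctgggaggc

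These 5 genes were picked by their promoters and not by the size of their difference. GPR35, a G protein-coupled receptor of the gut, was at 21.3, 18.9 and 22.3 TPM in isoform 1 and at 3.85, 3.04 and 4.58 TPM in isoform 7. APOBEC1, the enzyme that edits apolipoprotein B messenger RNA, was at 48, 41.8 and 48.2 TPM against 17.8, 16.3 and 14.6 TPM, and at a mean of 0.0403 TPM in the parental cells. Both genes were expressed in each line above the parental cells. VTN, or vitronectin, was at 11.5, 8.82 and 13.1 TPM against 3.51, 2.81 and 3.96 TPM. MISP, an actin-bundling protein, was at 77, 65.2 and 74.7 TPM against 27.9, 26.5 and 27.8 TPM. PPP1R14D, a phosphatase inhibitor, was at 11, 8.25 and 10 TPM against 2.36, 1.94 and 2.2 TPM. The match lay within 35 bases of the gene start in GPR35 and APOBEC1 and at 98 to 90 bases before it in VTN. A match describes the letters only, and binding was not measured.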

How the data were processed

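Per the labels' protocols, total RNA was enriched for poly(A) and made into directional libraries. The submitters' processing notes name Trimmomatic 0.36, FastQC 0.11.5, kallisto 0.44.0, DESeq2 1.22.2 and GRCh38.p12, without their roles. The authors deposited TPM per gene row and library, and tables of their own log2 fold changes with adjusted p-values against the parental cells, per the file headers. Those deposited columns entered no fit.

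TPM sums were 999972.6 to 999987.7 per library, so all libraries share a scale. The 12 HNF4A rows were summed and left out of the tests, which left 45434 rows. Values were tested as log2(TPM + 1), a scale that understates changes of low genes, with limma 3.58.1 (R 4.3.3; lmFit, eBayes with trend). Rows averaging 1 TPM or more across the 39 libraries entered a single fit of 13 groups with 26 residual degrees of freedom. Calls needed a Benjamini-Hochberg adjusted p under 0.05 and an absolute difference of at least 1. The script was tested on simulated data. HNF4A levels were compared with an exact permutation test (scipy 1.17.1).

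Named genes were HNF4A, the 15 largest falls and 15 largest rises among called protein-coding genes whose libraries do not overlap, up to 6 called members of each list, and the largest non-coding call in each direction. The members and lists were chosen with earlier results of these data known. Gene types came from the RefSeq table (41134 rows matched) and coordinates from GENCODE release 29. Nothing in the labels says that replicates were separate cultures, so p-values measure the spread between these libraries, which may be technical. No pair of the 6 libraries shared over 0.0077% of values above 0. The isoform 4 and 5 columns carry no replicate number. Alternatives were another pseudocount, other filters, scaling between libraries, only the groups compared, no minimum difference, a replicate block and each library left out. Leaving out isoforms 4 and 5 without a block was chosen after seeing the data. A few list members entered the tests and counts but are not reported here by name.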

Additional observations from a re-analysis of the deposited data

Results flagged for a closer look

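For 21 of the 47 named genes the difference of isoform 7 against 1 was itself different, by limma's test of the difference of differences (adjusted p of at most 0.0328 and an absolute size of at least 1), from that of isoform 8 against 2 or of isoform 9 against 3. Negative values mean that isoform 7 against 1 was the lower of the compared differences.

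Set against isoform 8 minus 2, 6 genes were flagged. IGF2BP3 differed by -2.99, CHAC1 by -2.25, PLIN2 by -1.70, CYP17A1 by -1.26 and ADGRF1 by -1.10. ARL14EPL differed by 1.58, since it fell further in isoform 8 against 2 (-3.96) than in isoform 7 against 1 (-2.38).

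Set against isoform 9 minus 3, 20 genes were flagged. Those with negative values were ARL14EPL at -2.96, APOA1 at -2.28, CYP17A1 at -2.19, CHAC1 at -2.16, SDCBP2 at -1.83, WFDC21P at -1.76, IGF2BP3 at -1.71, RBP2 at -1.69, PLIN2 at -1.67, SLC7A7 at -1.59, LGALS4 at -1.28, NR1I3 at -1.27, CREB3L3 at -1.27 and BAAT at -1.22. Those with positive values were SNORA5B at 3.28, CYP11A1 at 2.57, GP1BB at 1.88, SEMA7A at 1.23, CDKN2B at 1.04 and FGFBP1 at 1.01. APOA1 was at a mean of 0.278 TPM in isoform 3 and 0.292 TPM in isoform 9, so neither line held the level of isoform 1. Without the isoform 3 library that was low in HNF4A, 14 of the 20 were still called. The other 6 were FGFBP1 at 0.59, BAAT at -0.92, NR1I3 at -0.95, CREB3L3 at -0.96 and LGALS4 at -0.95, all below the minimum difference, and SNORA5B at 3.32 with an adjusted p of 0.0655. The HNF4A level differed between these lines, and its part in the differences was not tested.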

How the results depend on the processing

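The count of calls in isoform 7 against 1 (213) was 345 with a pseudocount of 0.1, 136 with a filter of 5 TPM and 5995 with no minimum difference. For isoform 8 against 2 (231) these were 387, 140 and 6636, for isoform 9 against 3 (84) they were 156, 42 and 2812, and for the difference between the isoform 7 and 8 pairs (69) they were 124, 32 and 857. For the difference between the isoform 7 and 9 pairs (91), the filter of 5 TPM gave 42 and no minimum difference gave 2258. Leaving out each library in turn gave 203 to 227, 225 to 237, 69 to 110, 60 to 76 and 66 to 116 calls for these 5 comparisons, and -60.6 to -29.4 TPM for the HNF4A level. Median-of-ratios scaling moved the median difference of all tested rows from 0.038 to 0.001, and the share of lower calls in isoform 8 against 2 from 68.4% to 78.2%. No filter gave a share of lower calls in isoform 7 against 1 of 88.4%, against 82.2%. No difference of a named gene reversed. Of 47 named genes, 42 stayed called in every alternative in which they were tested; the 5 exceptions were ABLIM3, VIPR1, TJP3, SNORA5B and LOC102723728, and each lost its call when a library was left out. The causes were not tested.

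Over all tested rows, deviations of same-numbered isoform 7 and isoform 1 libraries correlated at 0.0478, 0.0893 and -0.0434. Such values cannot show whether a smaller set of rows shares an effect of the replicate number. With a replicate block, 3713 rows were higher and 2694 lower in isoform 7 against 1 at any size. On the same libraries without the block, 3380 were higher and 2437 lower. With the replicate block the 5 comparisons had 213, 235, 82, 74 and 103 calls. Limits are the unknown depth, 1 line per isoform and 3 libraries per line.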

Other observations

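The following genes were chosen after their values were seen, so they are given as values with no test of a group. Several stress and early-response genes were among those lower in isoform 7. JUN, a subunit of the AP-1 factor, was at 110, 81.4 and 98.1 TPM in isoform 1 and at 41.1, 39.3 and 40.7 TPM in isoform 7. ZFP36, which destabilises messenger RNAs, was at 76.1, 83.5 and 73.5 TPM against 36.2, 38.7 and 35.3 TPM, and FOSL2 at 35.8, 37.5 and 34.6 TPM against 15.7, 18.6 and 15.8 TPM. HMOX1, or haem oxygenase, was at 155, 122 and 127 TPM against 64.3, 60.5 and 55.3 TPM. The parental libraries had between 16.1 and 19.5 TPM of JUN and between 22.4 and 25.9 TPM of HMOX1. EGR1 went against this, at 69.9, 64.1 and 47.8 TPM against 73.5, 80.4 and 48.4 TPM, with overlapping libraries.

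Isoform 1 replicate 2 was the lowest isoform 1 library for a set of genes known to respond to amino acid shortage. Besides CHAC1, these were SLC7A11, a cystine transporter, at 7.32, 4.55 and 7.95 TPM, ADM2 at 3.53, 1.46 and 3.04 TPM, SESN2 at 19.7, 12.1 and 19.2 TPM, ASNS, or asparagine synthetase, at 112, 81.7 and 128 TPM and PSAT1, an enzyme of serine synthesis, at 177, 137 and 203 TPM. In isoform 7 the same genes lay between 2.31 and 2.62, 0.685 and 0.767, 8.6 and 9.75, 71.4 and 75.3, and 109 and 126 TPM. JDP2, a partner of AP-1, had the same profile, at 11.7, 5.07 and 13.9 TPM against 2.21, 2.48 and 2.32 TPM. For SLC7A11, SESN2, ASNS and PSAT1 the differences of isoform 8 against 2 were -0.63, -0.01, -0.08 and -0.04. A lowest value in isoform 1 replicate 2 was not particular to these genes. It was also seen in CYP17A1 (27.9, 17.1 and 26.6 TPM), SDCBP2 (39.7, 29.5 and 39.8 TPM), VIL1, BAAT, CIDEB and IL32. RBP2, CLRN3, NR1I3, SLC7A7 and LGALS4 had it too. Of the 15 largest falls, only CREB3L3, SLC1A7, ARL14EPL and IGF2BP3 did not. The same library had the highest S phase sum of isoform 1, at 2234 TPM against 2066 and 2020 TPM.

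PDGFC, a growth factor, was at 11.5, 13.8 and 12.7 TPM in isoform 1 and at 2.65, 2.14 and 1.38 TPM in isoform 7. It differed by -2.18 there, by -2.13 in isoform 9 against 3 and by 0.63 in isoform 8 against 2. KRTAP3-1, a keratin-associated protein, differed by -1.47, 0.00 and 2.28 in the same order, and was the only row called lower in isoform 7 against 1 and higher in isoform 8 against 2.

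Of the called rows, 11 pairs were neighbours on a chromosome among tested rows and moved the same way, 8 lower and 3 higher. Neighbours here means next among tested rows, and the gaps ran from 0, in SEPT5 and GP1BB, to 1092887 bases. Whether 11 pairs are more than the number of calls would give was not tested. CYP11A1 and SEMA7A lie 41549 bases apart on chromosome 15 and were both higher in isoform 7 (2.69 and 1.38). They differed by 2.75 and 0.87 in isoform 8 against 2 and by 0.12 and 0.15 in isoform 9 against 3. PLA2G7 and ADGRF1 lie 262010 bases apart on chromosome 6, and differed by 1.26 and 1.09 in isoform 7 against 1, by 2.15 and 2.18 in isoform 8 against 2 and by 1.31 and 0.83 in isoform 9 against 3.

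RPL21P16, a ribosomal protein pseudogene, was at 1539 and 1124 TPM in 2 isoform 1 libraries and at 0.247 TPM in the third. Its difference of 3.59 did not pass (limma adjusted p = 0.141).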
